A study of Mus musculus with 4 samples.

Results

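Oxidative phosphorylation (OXPHOS) is the process by which mitochondria turn the oxidation of nutrients into ATP. Electrons from NADH enter the respiratory chain at complex I and electrons from succinate enter at complex II. They pass through complex III and cytochrome c to complex IV, which hands them to oxygen, and the proton gradient built on the way drives the ATP synthase, complex V. Most subunits are encoded in the nucleus and a smaller set in the mitochondrial genome, so each complex other than complex II is assembled from both sources. Oocytes depend on their mitochondria for ATP because they metabolise little glucose on their own, and mitochondrial numbers increase greatly while the oocyte grows. Several complex IV subunits exist as isoforms that are known from muscle, lung or testis.

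Genes were chosen by name: gene symbols that begin with Ndufa, Ndufb, Ndufc, Ndufs or Ndufv and a number, the 4 Sdh genes, and symbols that begin with Uqcr, Cox4 to Cox8, or Atp5 and a letter. The rule took 86 of the 25587 listed genes, which lie on 19 chromosomes. Of these, 37 carry complex I names, 4 complex II, 8 complex III, 17 complex IV and 15 complex V. Ndufa4, counted here under complex I by its name, is now known as a complex IV subunit. The remaining 5 are not subunits: Cox7a2l is a factor for respiratory supercomplexes, Atp5s and Atp5sl are older names of Dmac2l and Dmac2, named for distal membrane arm assembly, Cox4nb is the older name of the endoplasmic reticulum gene Emc8, and Atp5l-ps1 is a pseudogene. A mean RPKM (reads scaled to exon length and to library size) over the libraries of at least 0.5 was reached by 80 of the 86 genes, 76 of them subunits. Below it were Ndufa4l2, Cox7a1, Cox7b2, Cox8b, Cox8c and Atp5l-ps1.

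The RNA was total RNA depleted of ribosomal RNA, from oocytes of wild-type C57BL/6Babr mice. Each stage is 1 library of pooled oocytes: non-growing oocytes (NGO) of 10 to 40 µm from mice 5 days after birth, growing oocytes GO1 of 25 to 70 µm from days 8 to 14, growing oocytes GO2 of 50 to 70 µm from day 15, and fully grown oocytes (FGO) above 70 µm from day 20. NGO and FGO libraries were made with a dUTP protocol and GO1 and GO2 libraries with the ScriptSeq v2 kit. Changes were therefore computed only within a protocol, from NGO to FGO and from GO1 to GO2. Between the pairs, stage and protocol cannot be told apart, and values are set side by side only. With 1 library per stage there is no replicate check and no test, and a gene was called when it differed at least 2-fold. Intervals of reads and of shares cover counting error only. Intervals of a median change describe the spread over member genes, and hold neither counting error nor differences between libraries of a stage. Fewer transcripts per oocyte and a larger pool of other RNA cannot be told apart from relative values such as these.

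Counts assigned to genes, recovered from the RPKM values and called reads here, numbered between 63972576 in NGO and 140884253 in GO2. They are above the raw reads the study states in every library, so a fragment may be counted more than once. All 11 oocyte markers were abundant, the lowest being Figla, an oocyte transcription factor, with 20.6 RPKM in FGO. From NGO to FGO, 4 of them were at least 2-fold lower (36.4%, against 10.6% of all genes). At least 2-fold higher were 2 of them (18.2%, against 12.7%). The median log2 change of the oocyte markers was -0.75. The 6 stroma markers summed to 5.51 RPKM in NGO and to between 0.158 and 0.245 in the other libraries, with Col1a1 and Col3a1, the main fibrillar collagens, at 2.24 and 1.73 RPKM in NGO. The 10 granulosa cell markers summed to 6.11 RPKM in NGO, 10.995 in GO1, 13.4 in GO2 and 13.03 in FGO, most of it from Nr5a2, which is also known from oocytes. The 3 of them that passed, Inha, Nr5a2 and Kitl, were over 2-fold higher in FGO than in NGO (log2 changes 1.20, 1.29 and 1.54). Those that did not pass went both ways. Wt1 (-1.09), Amhr2 (-0.57), Fst (-0.54) and Foxl2 (-0.45) were lower in FGO, and Fshr (0.81) and Amh (0.59) were higher. Inhba was nearly unchanged (0.0065), with 0.0868 RPKM in NGO and 0.0844 in FGO. Foxl2 stayed at or below 0.0754 RPKM, its value in NGO. The 5 blood markers in the table summed to between 3.55 RPKM in NGO and 10.04 RPKM in FGO. The rise lies in Pecam1, an endothelial and platelet adhesion molecule, at 1.74 and 9.70 RPKM in these libraries. The others were lower in FGO than in NGO. Cd68 had 0.626 RPKM in NGO and 0.326 in FGO, and Ptprc had 0.0192 and 0.0162. The globin genes Hbb-b1 and Hba-a1 reached at most 0.902 RPKM, in NGO, and were at 0 in FGO. The stroma, granulosa and blood sums all move with the NGO to FGO comparison, and their part in the results was not tested.

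Transcripts of OXPHOS subunits were abundant in every library. The median RPKM over the 80 genes that passed was 23.1 in NGO, 11.1 in GO1, 10.3 in GO2 and 14.6 in FGO. Ranked among the 11177 genes with a mean RPKM of at least 0.5, the median member stood at percentile 86.0 in NGO, 72.2 in GO1, 70.4 in GO2 and 76.7 in FGO. In NGO 29 members were in the top 10% of genes, and 8 were below the median gene. In FGO 19 were in the top 10% and 20 were below the median gene. The summed RPKM of all 86 genes was 1.41% of the table's RPKM in NGO, 0.721% in GO1, 0.689% in GO2 and 0.879% in FGO. The genes are short, with a median exon length of 1304.5 bases against 3422 bases over all genes that passed, so their share of reads is smaller than their rank per length.

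Taken by complex and over every gene named for it, the median RPKM in NGO, GO1, GO2 and FGO was 18.7, 8.84, 9.51 and 10.2 for complex I and 24.8, 17.2, 15.4 and 15.3 for complex II. For complex III it was 32.8, 11.1, 10.9 and 19.8, and for complex V 24.4, 11.4, 11.9 and 17.8. Complex IV, whose 17 genes include 4 isoforms below the limit of 0.5 RPKM, had medians of 17.4, 10.8, 8.86 and 10.6, and its 13 genes above the limit had 53.2, 12.1, 14.9 and 28.6. Each complex thus had its highest median in NGO. Complexes I, III and V, and complex IV over its 13 genes, had a higher median in FGO than in either growing library, across protocols. For complex I the order of FGO and GO2 depends on the scaling. With the RPKM of each library brought to one sum, its median was 56.3 in GO2 and 54.2 in FGO.

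**Figure D1:**
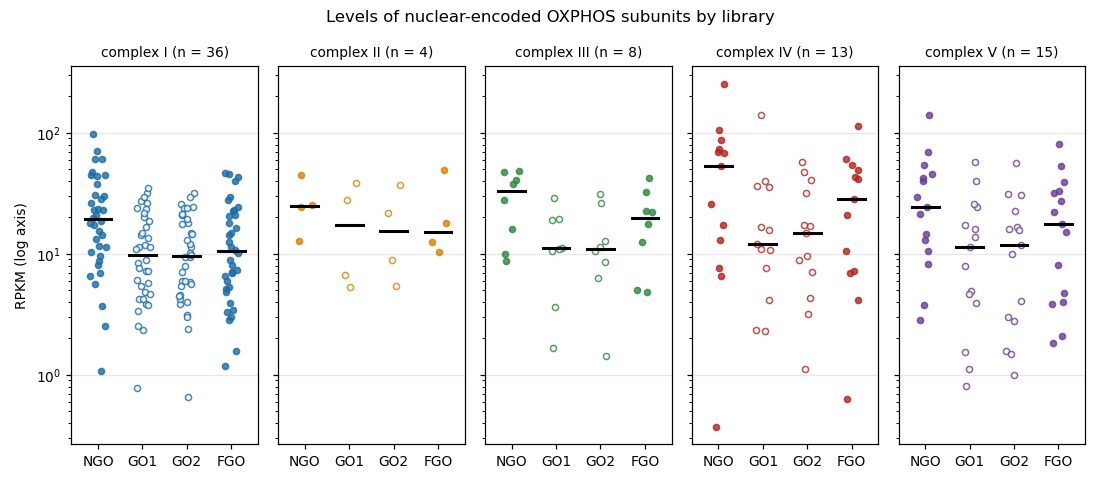
Each point is 1 nuclear-encoded subunit with a mean RPKM of at least 0.5, plotted by library (x axis) and RPKM on a log axis (y axis), in a panel per complex. Filled points are dUTP libraries, open points ScriptSeq libraries, and black lines the medians, which for complex I were 19.3 in NGO, 9.86 in GO1, 9.64 in GO2 and 10.5 in FGO. The spread among subunits of a complex exceeds the difference between the medians of any pair of libraries.

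From NGO to FGO, the members were lower as a group. After scaling, 72 of the 80 members were lower in FGO, against 50.2% of all genes that passed. The median log2 change was -0.64, with an order-statistic interval over members from -0.77 to -0.50, and the median of all genes was -0.0032. At least 2-fold lower were 18 members, or 22.5%, against 10.6% of all genes. At least 2-fold higher was 1 member, Cox6a2, or 1.25%, against 12.7% of all genes. Between 1.5-fold lower and 1.5-fold higher lay 34 members, against 55.2% of all genes. Of the 30 members with exons under 1 kb, 8 were at least 2-fold lower and 1 higher, with a median log2 change of -0.57. Of all 935 genes of that length that passed, 160 were lower and 175 higher, with a median of -0.13.

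The medians were below 0 in each complex. They were -0.71 over 36 genes of complex I, -0.34 over the 4 of complex II, -0.61 over 8 of complex III, -0.61 over 13 of complex IV and -0.54 over 15 of complex V. The 2-fold lower genes numbered 10 in complex I, 0 in complex II, 1 in complex III, 4 in complex IV and 2 in complex V, the remaining gene being Atp5s. For complexes II and III the interval is the full range of their genes, from -0.91 to 0.20 and from -1.63 to 0.17. The range of complex II holds the medians of all the others.

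**Figure D2:**
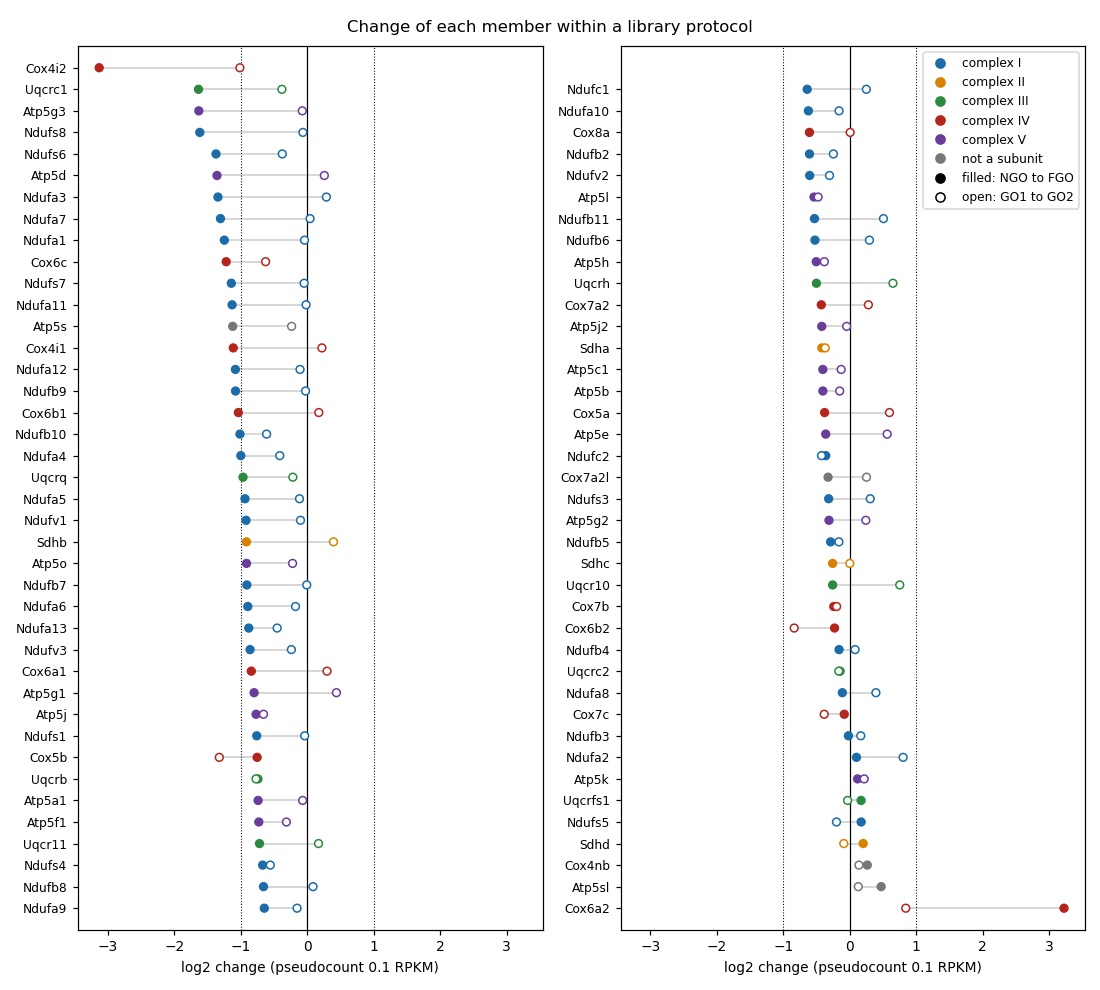
Log2 change (x axis) of 79 of the 80 members that passed (y axis, ordered by the NGO to FGO change and split over both panels). Filled points are NGO to FGO, open points GO1 to GO2, colours are complexes, and dotted lines mark 2-fold. The filled points lie mostly between 0 and -1.63, with Cox4i2 at -3.13 and Cox6a2 at 3.22 outside, while the open points lie on both sides of 0.

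From GO1 to GO2, the members differed little in their median. In GO2 49 of the 80 members were lower and 31 higher, against 49.8% of all genes that were lower. The median log2 change was -0.056, with an order-statistic interval over members from -0.15 to 0.0004, and the median of all genes was 0.0015. At least 2-fold lower were 2 members, Cox5b and Cox4i2, or 2.50%, against 0.832% of all genes. At least 2-fold higher were 0 members, against 2.04% of all genes. Within 1.5-fold lay 68 of the 80 members, against 87.6% of all genes.

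**Figure D3:**
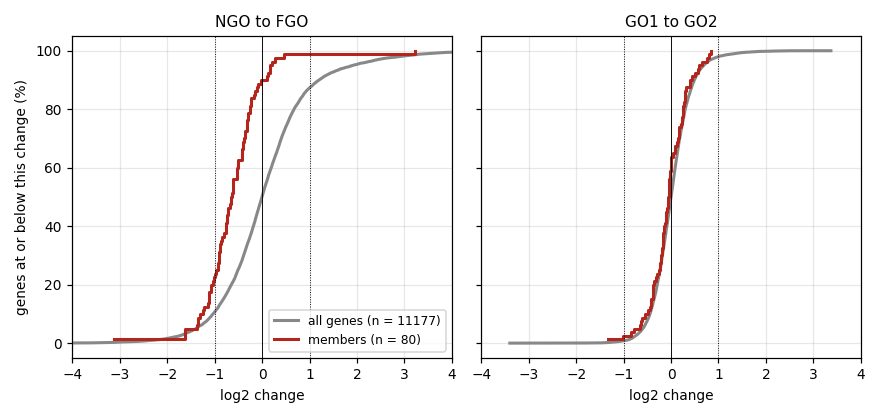
Cumulative share of genes (y axis, percent) at or below each log2 change (x axis) for the 80 members (red) and all 11177 genes that passed (grey), from NGO to FGO on the left and from GO1 to GO2 on the right. On the left the red curve is shifted to lower values, with 72 of 80 members below 0. On the right 49 of the 80 members and 49.8% of all genes lie below 0.

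Side by side and across protocols, 60 of the 80 members had their highest RPKM in NGO, 12 in GO1, 3 in GO2 and 5 in FGO. The same count was not made over all genes. Their median RPKM, over the 11177 that passed, was 5.34 in NGO, 4.66 in GO1, 4.73 in GO2 and 5.21 in FGO. Both ScriptSeq libraries lay below both dUTP libraries for 50 members, against 33.0% of all genes, and above both for 7 members, against 22.8%. These 7 were Ndufs3, Ndufs5, Atp5k, Ndufa5, Uqcrb, Ndufv3 and Cox7b. Among them, Ndufs5, a small accessory subunit of complex I, had 1.07 RPKM in NGO, 3.38 in GO1, 2.98 in GO2 and 1.18 in FGO. Of these 7, Ndufs3, Ndufs5 and Uqcrb have near-identical pseudogenes, and reads from such copies cannot be told apart from the gene's own.

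Complex I oxidises NADH, and its core subunits carry the flavin and the iron-sulfur clusters. Ndufv1, which binds the flavin and NADH, had 45.1 RPKM in NGO, 20.3 in GO1, 19.3 in GO2 and 22.9 in FGO. Ndufv2, which carries a cluster beside it, had 19.8, 21.6, 17.8 and 12.5 RPKM in the same order. Both were lower in FGO than in NGO, by 0.92 and 0.60 on the log2 scale, which is less than 2-fold. Ndufs1, the largest core subunit, had 11.6, 7.19, 7.12 and 6.55 RPKM. The matrix-arm core subunits near the quinone site did not move alike. Ndufs8 had 28.6 RPKM in NGO, 4.64 in GO1, 4.51 in GO2 and 8.94 in FGO, and Ndufs7 had 26.2, 6.05, 5.95 and 11.4. Both were over 2-fold lower in FGO, with log2 changes of -1.61 and -1.14. Ndufs3 had 3.73, 4.25, 5.38 and 2.87 RPKM, a log2 change of -0.32. The core subunits described here therefore spanned log2 changes from -1.61 to -0.32.

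Among the genes named for complex I outside its core, those with the highest mean RPKM were Ndufa4, counted here by its name, and Ndufa9. Ndufa4 had 97.1 RPKM in NGO, 31.9 in GO1, 24.3 in GO2 and 46.8 in FGO, a log2 change of -0.998 from NGO to FGO, just inside the 2-fold limit. Its side of the limit depends on the scaling, since with no scaling the log2 change was -1.05. Ndufa9 had 70.2, 34.9, 32.0 and 43.2 RPKM. The lowest were Ndufa4l2 and Ndufb2. Ndufb2 had 2.54, 0.778, 0.651 and 1.58 RPKM, over an exon union of 5628 bases that is the longest among the members that passed, and it overlaps Adck2 on the same strand. A further 8 accessory subunits were over 2-fold lower in FGO.

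These were Ndufs6 (log2 change -1.37), Ndufa3 (-1.34), Ndufa7 (-1.30), Ndufa1 (-1.25), Ndufa11 (-1.13), Ndufa12 (-1.08), Ndufb9 (-1.08) and Ndufb10 (-1.01). Ndufs6, a zinc-binding subunit, had 13.2 RPKM in NGO, 7.17 in GO1, 5.60 in GO2 and 4.87 in FGO. Ndufa11, a membrane-arm subunit, had 23.2, 3.82, 3.84 and 10.2 RPKM. Ndufa1, encoded on the X chromosome, had 44.4, 11.4, 11.3 and 17.995 RPKM. Between GO1 and GO2 each of the 10 complex I genes called lower in FGO changed by at most 1.53-fold, the widest change being that of Ndufb10, 14.3 and 9.47 RPKM. Of the 36 complex I genes that passed, Ndufa2 and Ndufs5 were higher in FGO than in NGO, Ndufa2 with 43.8 RPKM in NGO, 11.7 in GO1, 20.9 in GO2 and 45.3 in FGO.

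Complex II, succinate dehydrogenase, links the citric acid cycle to the chain and has no mitochondrially encoded subunit. Sdha, the flavoprotein that oxidises succinate, had 25.2 RPKM in NGO, 27.8 in GO1, 21.9 in GO2 and 18.1 in FGO. Sdhb, the iron-sulfur subunit, had 24.4, 6.63, 8.89 and 12.4 RPKM. The membrane anchors were Sdhc, with 12.9, 5.33, 5.42 and 10.4 RPKM, and Sdhd, with 44.8, 38.7, 36.9 and 49.7 RPKM. None differed 2-fold in either pair, Sdhb being nearest with a log2 change of -0.91 from NGO to FGO. Sdhd was the member of the complex with a higher value in FGO, by 0.20 on the log2 scale.

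Complex III passes electrons from ubiquinol to cytochrome c. Its core proteins differed from each other. Uqcrc1 had 40.4 RPKM in NGO, 11.03 in GO1, 8.59 in GO2 and 12.5 in FGO, a log2 change of -1.63 from NGO to FGO, the largest decrease of any member after Cox4i2. Uqcrc2 had 48.4, 28.9, 26.2 and 42.2 RPKM, a log2 change of -0.15. Uqcrfs1, the Rieske iron-sulfur protein, had 16.2, 10.6, 10.5 and 17.6 RPKM. Thus 1 core protein was 3.10-fold lower in FGO, and the other core protein and the Rieske protein were within 1.5-fold. Uqcrh, the hinge protein, had 47.5, 19.5, 31.1 and 32.3 RPKM, and was among the members with the largest increase from GO1 to GO2 (log2 change 0.65), with Uqcr10 (3.63 and 6.29 RPKM, log2 change 0.75). Uqcrb changed the opposite way in that pair, from 19.0 to 11.3 RPKM. The lowest members of the complex were Uqcrq, with 9.97, 1.66, 1.44 and 4.87 RPKM in stage order, and Uqcrb.

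Complex IV, cytochrome c oxidase, held the member with the highest mean RPKM. Cox4i1, the ubiquitous form of the largest nuclear-encoded subunit, had 255 RPKM in NGO, 40.2 in GO1, 47.7 in GO2 and 114 in FGO, a log2 change of -1.11 from NGO to FGO. It overlaps the gene model Gm20388 on its strand. Cox5a had 73.5, 11.01, 17.0 and 54.4 RPKM, a log2 change of -0.38 from NGO to FGO and of 0.60 from GO1 to GO2. Cox5b, its zinc-binding partner, took a different course.

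Cox5b had 106 RPKM in NGO, 141 in GO1, 57.4 in GO2 and 60.7 in FGO. It was the most abundant member in GO1 and in GO2. It was 2.50-fold lower in GO2 than in GO1 (log2 change -1.32), the largest decrease in that pair, and 1.68-fold lower in FGO than in NGO. Cox6c, a small membrane subunit, had 17.4, 10.8, 7.11 and 7.16 RPKM and was over 2-fold lower in FGO (log2 change -1.22). Cox7c was within 1.5-fold in both pairs, with 7.67, 4.13, 3.19 and 6.98 RPKM.

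Isoform pairs were compared by the share of an isoform in the summed RPKM of its family, which needs no scaling between libraries. Cox6a2, known as the heart and skeletal muscle form, lies on chromosome 7 from 128205436 to 128206366 and held 0.692% of Cox6a RPKM in NGO, 23.3% in GO1, 31.1% in GO2 and 12.7% in FGO. The Wilson intervals of these shares were 0.476% to 1.01%, 20.6% to 26.3%, 29.2% to 33.0% and 11.5% to 14.02%. Its RPKM was 0.371, 2.34, 4.34 and 4.15 in the same order, from 27, 195, 689 and 327 reads. From NGO to FGO this is a 9.33-fold higher value (log2 change 3.22) with 0.1 RPKM added, 3.835-fold with 1 RPKM and 11.3-fold with 0.01 RPKM, and from GO1 to GO2 a 1.79-fold higher value. Cox6a1, the widely expressed form, had 53.2, 7.67, 9.61 and 28.6 RPKM. In both pairs Cox6a2 was thus higher in the later stage, and Cox6a1 was lower in FGO and 1.23-fold higher in GO2. Cox6a2 was the most increased member in both pairs. It lies within the span of Itgad on the other strand, and whether strand was used in counting is not given in the sources used here.

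Cox6b2, the testis form of subunit 6b, held 12.8% of Cox6b RPKM in NGO, 30.5% in GO1, 17.8% in GO2 and 20.5% in FGO, with intervals of 12.0% to 13.7%, 29.0% to 32.0%, 16.9% to 18.7% and 19.1% to 21.9%. Its level was 12.9, 15.6, 8.86 and 10.6 RPKM. Its counterpart Cox6b1 had 87.7, 35.7, 40.9 and 41.2 RPKM. The larger share in FGO than in NGO came with a Cox6b1 value 2.05-fold lower in FGO and a Cox6b2 value 1.17-fold lower. The smaller share in GO2 than in GO1 came with a Cox6b2 value 1.79-fold lower and a Cox6b1 value 1.13-fold higher. The promoters of both genes, and those of 3 other members described here, are shown so that members that moved alike or apart can be compared in sequence. They are the 120 bases before the RefSeq start (GRCm38.p6), 5′ to 3′ on the gene's strand, with matches to 3 motif cores in capitals.

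Cox6b1 (chr7:30626115-30626234, minus strand, ETS core in capitals): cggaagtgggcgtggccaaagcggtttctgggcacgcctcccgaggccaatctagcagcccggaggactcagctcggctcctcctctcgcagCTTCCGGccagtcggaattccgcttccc
Cox6b2 (chr7:4753095-4753214, minus strand, no match): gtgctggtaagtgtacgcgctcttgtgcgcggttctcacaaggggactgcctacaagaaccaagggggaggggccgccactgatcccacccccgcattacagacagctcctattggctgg
Cox5b (chr1:36691367-36691486, plus strand, no match): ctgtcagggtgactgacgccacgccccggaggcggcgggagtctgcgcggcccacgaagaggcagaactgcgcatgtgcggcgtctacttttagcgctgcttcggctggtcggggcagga
Ndufa11 (chr17:56717642-56717761, plus strand, NRF1 core on both strands, overlapping): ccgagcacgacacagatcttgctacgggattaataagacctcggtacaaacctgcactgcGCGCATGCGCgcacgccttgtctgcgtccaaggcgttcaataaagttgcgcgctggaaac
Atp5k (chr5:108434400-108434519, minus strand, NRF1 core on both strands, overlapping): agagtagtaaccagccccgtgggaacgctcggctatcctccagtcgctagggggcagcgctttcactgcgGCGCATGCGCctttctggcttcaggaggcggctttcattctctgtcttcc

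The cores were GCATGCGC for NRF1, CCGGAAG for ETS factors such as GABP, and AAGATGGC for YY1, all known from promoters of respiratory chain genes, and they were searched on both strands from 250 bases before to 50 bases after the start. RefSeq promoters were matched for 69 of the 86 genes. Among the 66 of these that passed, 10 held the NRF1 core (15.2%, against 6.12% of the promoters of all genes that passed), 15 the ETS core (22.7% against 20.3%) and 10 the YY1 core (15.2% against 5.15%). At least 1 core was found in 30 of them, 45.5%, against 28.9% of all 8645 such promoters. Of the 14 matched members over 2-fold lower in FGO, 7 held a core, as did 23 of the other 52. The match is a description of letters. Cox6b1 and Ndufa11 are among the lower members with a core, and Atp5k, an ATP synthase subunit with 21.2, 25.9, 30.7 and 22.2 RPKM, held 2 overlapping NRF1 cores and, after the start, an ETS core, and was within 1.5-fold in both pairs.

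Cox4i2, the lung form of subunit 4, known to respond to low oxygen, held 2.51% of Cox4i RPKM in NGO, 5.41% in GO1, 2.27% in GO2 and 0.556% in FGO, with intervals of 2.31% to 2.72%, 4.77% to 6.14%, 1.99% to 2.60% and 0.432% to 0.715%. Its RPKM was 6.56, 2.30, 1.11 and 0.636, from 572, 230, 211 and 60 reads. It was 8.74-fold lower in FGO than in NGO, the largest decrease of any member (4.515-fold with 1 RPKM added in place of 0.1). It was 2.02-fold lower in GO2 than in GO1. With no scaling, with the RPKM of each library brought to one sum or with 1 RPKM added, this was under 2-fold. Stroma markers moved the same way in the first pair and summed to 0.158 RPKM in GO1 and 0.238 in GO2. Their part in either difference was not tested.

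**Figure D4:**
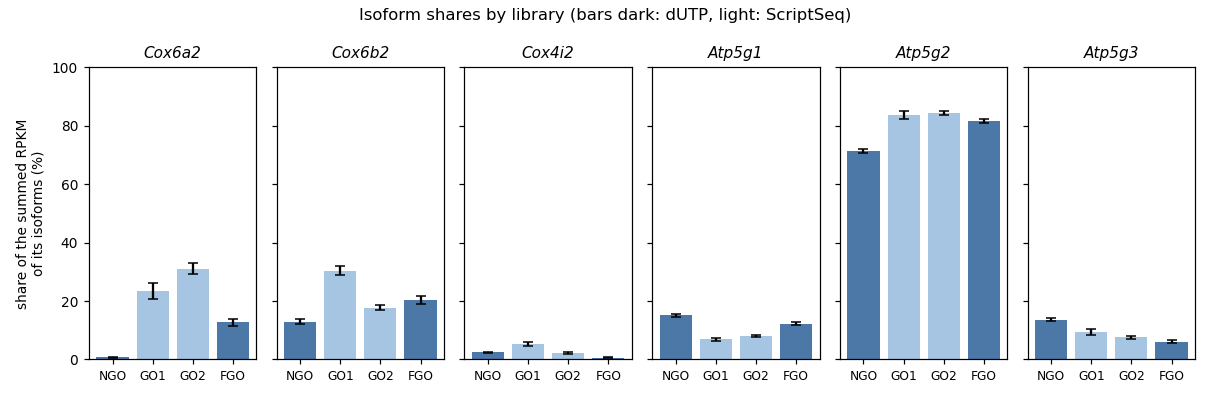
Share of 6 isoforms in the summed RPKM of their family (y axis, percent) in each library (x axis). Dark bars are dUTP libraries, light bars ScriptSeq libraries, and error bars 95% Wilson intervals of the recovered reads, which cover counting error only. Cox6a2 is at 0.692% in NGO and between 12.7% and 31.1% in the others, while Atp5g2 holds between 71.4% and 84.4% of the Atp5g RPKM.

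The other tissue-type isoforms were at or near 0 in all libraries. Cox7a1, the muscle form of subunit 7a, had between 0.0919 and 0.298 RPKM, at most 0.982% of the summed RPKM with Cox7a2. Cox8c, a testis form of subunit 8, had between 0.0609 and 0.323 RPKM, at most 0.588% of its family. Cox7b2, another testis form, and Cox8b, the muscle form of subunit 8, had 0 reads in every library. A count of 0 allows up to 0.0985% of the Cox7b family's reads in FGO, where the family was shallowest for Cox7b2, and up to 0.257% of the Cox8 family's reads in GO1. The counterparts were present: Cox7a2 had 69.0, 12.1, 14.9 and 49.4 RPKM, Cox7b had 25.7, 36.1, 32.0 and 20.97, and Cox8a had 68.2, 16.8, 17.2 and 43.1. Ndufa4l2, a relative of Ndufa4 induced by low oxygen, had between 0.255 and 0.670 RPKM, at most 1.41% of the pair by RPKM and 2.72% by reads. Of the testis-type isoforms of complex IV, Cox6b2 was thus the one above 0.5 RPKM.

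Complex V, the ATP synthase, makes ATP in its F1 head. Atp5a1, the alpha subunit, had 140 RPKM in NGO, 57.7 in GO1, 55.9 in GO2 and 81.1 in FGO, the highest mean of the complex. Atp5b, the catalytic beta subunit, had 54.1, 24.5, 22.4 and 39.3 RPKM. Atp5c1, the gamma subunit of the central stalk, had 24.4, 17.2, 16.0 and 17.8 RPKM. The 3 subunits were lower in FGO than in NGO by log2 changes of -0.74, -0.40 and -0.41, each under 2-fold. The remaining stalk subunits went apart: Atp5d, the delta subunit, had 10.5, 0.806, 0.999 and 3.88 RPKM and was 2.56-fold lower in FGO, while Atp5e, the epsilon subunit, had 42.4, 7.89, 11.9 and 31.8 RPKM, a log2 change of -0.36. Atp5d overlaps the gene Dos on the other strand. The lowest members by mean RPKM were Atp5l, with 2.83, 3.89, 2.81 and 1.85 RPKM, and Atp5j, with 3.799, 4.70, 2.99 and 2.11 RPKM, and 8 near-identical pseudogenes of Atp5l could share its reads.

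Atp5g1, Atp5g2 and Atp5g3 encode the same mature subunit c, the ring of the motor, with different import sequences. Atp5g2 held most of their summed RPKM, with 71.4% in NGO, 83.8% in GO1, 84.4% in GO2 and 81.6% in FGO, with intervals of 70.6% to 72.1%, 82.5% to 84.99%, 83.6% to 85.1% and 80.9% to 82.3%. Its level was 69.0, 13.7, 16.5 and 53.5 RPKM. Atp5g3 had 13.1, 1.54, 1.48 and 4.02 RPKM and was 3.09-fold lower in FGO than in NGO (log2 change -1.63), and its share was 13.6% in NGO and 6.14% in FGO. Atp5g1 had 14.6, 1.12, 1.58 and 8.02 RPKM. By reads rather than RPKM, Atp5g1 held 54.8% in NGO and 54.9% in FGO, because its exon union of 4912 bases is far longer than the 441 bases of Atp5g2, so the order of these isoforms depends on the exon model. Near-identical pseudogenes, 2 of Atp5g2 and 1 of Atp5g1, could share their reads.

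The genes of the rule that are not subunits varied among themselves. Cox7a2l had 64.2 RPKM in NGO, 35.8 in GO1, 43.3 in GO2 and 49.4 in FGO. Atp5s was over 2-fold lower in FGO (log2 change -1.12), from 1.80 to 0.743 RPKM. Atp5sl (log2 change 0.47) and Cox4nb (0.26) were higher in FGO and were 2 of the 8 members above 0 in that pair. Atp5l-ps1 was listed at 0 in NGO, GO1 and FGO and at 0.0133 RPKM in GO2.

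Genes around the pathway were counted in the same way, from lists that are not part of the name rule. Of 47 assembly factors, 46 were found, in part under older symbols, and all 46 passed. From NGO to FGO 2 were 2-fold higher and 5 lower, that is 4.35% and 10.9% against 12.7% and 10.6% of all genes, with a median log2 change of -0.16, and from GO1 to GO2 none passed 2-fold. Lower in FGO were Lyrm7 (log2 change -2.14) and Bcs1l (-1.05), which serve the Rieske protein of complex III, AI462493, the older name of the complex III factor Uqcc3 (-1.82), Foxred1 (-1.58), a complex I factor, and Ccdc56, the older name of the complex IV factor Coa3 (-1.06). Higher were Sdhaf1 (1.20), a complex II factor, and 2310030N02Rik (1.17), the older name of the complex I factor Ndufaf6.

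Of 15 regulators of mitochondrial biogenesis, 11 passed, and none of them changed 2-fold in either pair. Of all genes, 12.7% were 2-fold higher and 10.6% lower from NGO to FGO, and 2.04% and 0.832% from GO1 to GO2. Those that did not pass went both ways from NGO to FGO. Esrra fell from 0.958 to 0.0856 RPKM (log2 change -2.47) and Pprc1 was lower (-0.27), while Ppargc1a (0.36) and Polg2 (0.034) were higher. Nrf1, the factor whose core was searched above, had 7.31, 8.95, 10.8 and 13.9 RPKM, a log2 change of 0.97 from NGO to FGO, and Gabpa, an ETS factor, had 3.18, 4.12, 2.84 and 1.59 RPKM, a log2 change of -0.90. Tfam, which packages mitochondrial DNA, had 15.3, 19.6, 16.0 and 12.2 RPKM. Ppargc1a, a coactivator prominent in muscle and liver, stayed at or below 0.0487 RPKM.

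Among genes of the chain that the name rule leaves out, Cyc1, the cytochrome c1 of complex III, had 22.7 RPKM in NGO, 4.61 in GO1, 4.21 in GO2 and 5.22 in FGO, a log2 change of -2.05 from NGO to FGO. Cyct, the testis form of cytochrome c, had 1.37, 4.83, 4.64 and 3.02 RPKM, a log2 change of 1.14, and Cycs, the somatic form, had 0.385, 1.55, 1.73 and 0.813 RPKM. Of the 13 mitochondrially encoded subunits, 6 were 2-fold lower and 1, mt-Nd6, which is encoded on the opposite strand to the rest, 2-fold higher in FGO than in NGO, which is 46.2% lower and 7.69% higher against 10.6% and 12.7% of all genes. From GO1 to GO2 11 of the 13, or 84.6%, were 2-fold lower, against 0.832% of all genes and 2 of the 80 nuclear-encoded members. The median log2 change of the 13 genes was -0.86 in the first pair and -1.26 in the second, beside -0.64 and -0.056 for the members.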

How the data were processed

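The authors trimmed reads with Trim Galore 0.2.8 and mapped them to GRCm38 with TopHat2 2.0.9, per the labels and the study's methods. They deposited 1 table of RPKM values, on a linear scale, for 25587 genes in 4 libraries (NGO, GO1, GO2 and FGO, 1 each). The program, annotation and strand setting behind these RPKM values are not given in the sources used here. No per-sample column was left unmapped.

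For each pair of libraries of one protocol, RPKM values were scaled with the mean log ratio of genes left after trimming (30% of ratios and 5% of mean levels at each end), 0.1 RPKM was added, and the log2 ratio was taken. Log2 changes understate those of low genes because of this pseudocount. Genes with a mean RPKM of at least 0.5 over the 4 libraries entered the counts, and a gene was called at 2-fold or more. With 1 library per stage no test was made. The scaled log ratios were tested on simulated data.

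Reads per gene were recovered from the RPKM values. The library total was fitted on genes with a single exon in GENCODE M21, where at least 99.4% of values were whole within 0.001 counts plus 2e-07 of the count. The exon length of each other gene was then the GENCODE length, or otherwise the smallest length, that made its values whole in every library. The fit was tested on simulated data, and a true length that is a multiple of the one found would raise the reads and narrow the intervals. The fitted totals, 110595207 in NGO, are above the numbers of raw and of uniquely mapped reads the study states in every library, so a fragment may be counted more than once. In that case the counts are not independent, and the intervals and the limits for a count of 0 are too narrow. Poisson and Wilson intervals (95%) and the limit of 3 counts for a count of 0 cover counting error only. Pseudogene copies were found with blastn 2.17.0 on 85 members (95% identity over 50% of the mRNA) and overlaps from the deposited spans: 11 members had such a copy and 20 overlapped another gene, 5 of them on the same strand. Exon unions can include retained introns, which lowers RPKM.

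1 core subunit is counted but not reported by name here. Genes named in the text are the isoforms and their counterparts, the core and catalytic subunits, the 2 highest and 2 lowest members per complex, the 5 largest increases and decreases per pair, and every member past 2-fold, as well as genes singled out after their values were seen (Ndufa5, Ndufv3, Atp5k and Cox7c). The members, lists and alternatives were chosen with earlier results of these data known. Promoters came from RefSeq (GRCm38.p6), and assembly factors missing from the table by symbol were matched through RefSeq synonyms. Alternatives changed the scaling, pseudocount, filter, threshold, length and membership. Computations used Python 3.11.15, numpy 2.4.6, pandas 2.3.3, scipy 1.17.1 and matplotlib 3.10.9.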

Additional observations from a re-analysis of the deposited data

How the results depend on the processing

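With 1 library per stage, no library could be left out of a comparison, and depth limits the low isoforms, whose counts are few. From NGO to FGO the median log2 change of the members stayed between -0.70 and -0.59 under all alternatives run, and the number of members past 2-fold, 19, became 2 at a threshold of 4-fold and 46 at 1.5-fold. Adding 1 RPKM left 15 members lower, all among the 18, with Atp5s, Ndufa12 and Ndufb10 no longer past 2-fold, and removing the 19 that overlap another gene left 15 lower and none higher, since Cox6a2 is one of them. Leaving out the 5 genes that are not subunits, or the 11 with near-identical pseudogenes, both chosen after seeing the data, left 17 lower each.

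From GO1 to GO2, 2 members were past 2-fold. There was 1 with no scaling, 1 with the RPKM of each library brought to one sum, 1 with 1 RPKM added and 1 among genes of at least 5 RPKM, which leaves out Cox4i2. In these 4 cases the remaining member was Cox5b. There were 0 at 4-fold and 12 at 1.5-fold. Under the scaling to one sum the median reversed, to 0.012, while that of all genes moved to 0.068.

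Among all listed genes the median percentile was 93.0 in NGO, 87.6 in GO1, 86.5 in GO2 and 88.3 in FGO. Among genes of at least 5 RPKM it was 76.5, 49.1, 52.3 and 63.2 (same order), since fewer low genes remain. Ranked by reads it was 65.0, 47.7, 43.0 and 52.1, since the members are short. With RPKM brought to one sum (that of TPM), the median level in NGO, GO1, GO2 and FGO was 99.5, 50.7, 56.3 and 54.2 for complex I, 132, 98.9, 91.1 and 81.5 for complex II, 174, 63.9, 64.7 and 105 for complex III, 92.5, 62.2, 52.4 and 56.4 for complex IV, and 130, 65.5, 70.4 and 94.7 for complex V. These medians include every gene of a complex, in contrast to the plot of levels. By reads, the share of Cox4i2 was 2.90% in NGO, 6.23% in GO1 and 2.63% in GO2, and the share of Cox6b2 was 13.8%, 32.3%, 19.1% and 21.9%. Among the 80 members, Ndufa4 passed 2-fold lower in FGO under no scaling, one sum and median of ratios, and Uqcrq under the former pair, which made 20, 20 and 19 members lower. No member called in either pair changed direction, and from GO1 to GO2 13 uncalled members of at most 0.0683 (log2) changed sign under another scaling.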
